A study of Mus musculus with 6 samples.

Results

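The DNA replication and S phase genes are 37 genes taken by symbol, from the helicase subunits that open the double helix to the enzymes that supply its building blocks. All 37 were among the 24346 gene symbols of each library, and all 37 reached 1 FPKM (fragments scaled by transcript length and by the mapped fragments of the library) or more in 3 or more libraries, as did 9087 symbols in all. For 36 of them this held in all 6 libraries, so their entry did not depend on a group in which they were high. The exception, Pola1, was under 1 in IgM library 2. The list was drawn up by function, but with earlier results of these data known.

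The libraries came from B1-8germ B cells, congenically marked cells whose knocked-in heavy chain recognises the hapten NP, which were transferred into wild-type C57BL/6J hosts. All hosts received NP-CGG in alum on day 0, and at day 7 donor-derived plasma cells were sorted from the spleen. The IgM group (3 libraries) held cells sorted as IgM plasma cells, and the IgG1 group (3 libraries) held cells sorted as IgG1 plasma cells. Every group thus shares the transferred cell type, host, antigen, tissue and time, and the groups differ in the isotype of the sort. The labels do not give the age or sex of the mice, the number of animals behind a library, or whether each library is a different animal. The p-values therefore rest on library-to-library spread that may be technical.

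Before a cell divides it copies its genome in S phase. The MCM2-7 ring is loaded on origins in G1 with the help of Cdc6 and Cdt1, is switched on by Cdc45, the GINS complex and Mcm10, and unwinds DNA ahead of the polymerases, which are held in place by the PCNA clamp. E2F transcription factors, released from the retinoblastoma protein by cyclin-dependent kinases, drive the transcription of many of these genes at the G1 to S boundary. In antibody responses the proliferating stage of this lineage is the plasmablast, and resting plasma cells have left the cell cycle.

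The plasma cell markers were abundant (summed FPKM of the 8 markers 44300 to 50170 in IgM and 36770 to 39350 in IgG1 libraries). Most of these sums came from Jchain, Mzb1 and Xbp1. Tnfrsf17 had a mean of 623 in IgM and 81.9 in IgG1 (limma adjusted p = 1.23e-06). Prdm1, Irf4, Slamf7 and Jchain were also called lower in IgG1 by the test below, as were 1.76% of all tested genes. Sdc1, Xbp1 and Mzb1 were not called. Pax5, a defining mature B cell factor, was listed at 0 in all 6 libraries. All 5 neutrophil markers in the files, the erythroid marker Klf1 and the NK cell markers Ncr1, Klrb1c and Gzma were also at 0 in all 6, while the 4 NK cell markers summed to 1.10 to 3.45 in IgM and 0.961 to 9.18 in IgG1 libraries and the 6 erythroid markers in the files to at most 2.78 in any library. The summed macrophage or monocyte markers were 9.03 to 12.7 in IgM and 2.80 to 9.54 in IgG1 libraries, the 6 T cell markers summed to at most 7.29 in any library, and the 4 dendritic cell markers to at most 4.20. The 7 mature B cell markers summed to 124 to 153 in IgM and 97.5 to 124 in IgG1 libraries, and the 6 germinal centre markers to 19.9 to 22.3 and 22.9 to 41.4. The part of these in the results was not tested. By the smallest common step of FPKM times transcript length, IgM libraries held roughly 16170000 to 18070000 fragments. IgG1 libraries held roughly 15140000 to 15800000, so the groups did not overlap in this estimate. Symbols at 0 numbered 12159 to 12560 in IgM and 12896 to 13481 in IgG1 libraries. The part of depth in the results was not tested. Summed FPKM was 730695 to 806599 in IgM and 855123 to 914019 in IgG1 libraries.

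Many replication genes carry sites for E2F factors close to their start, so the promoter windows of 4 members are shown: Pcna, which passed the test below, the helicase genes Mcm5 and Mcm6, whose windows held a shared element, and E2f2, itself an E2F factor. Each window (300 bases) runs from 250 bases before to 50 bases after the annotated start, read 5′ to 3′ on the strand of the gene, from RefSeq on GRCm38.p6. Capitals mark matches to any of TTTCCCGC, TTTCGCGC, TTTGCCGC and TTTGGCGC on either strand, which may overlap each other. The windows lie at chr2:132253131-132253430 (Pcna, minus strand), chr8:75109259-75109558 (Mcm5, plus strand), chr1:128359656-128359955 (Mcm6, minus strand) and chr4:136172024-136172323 (E2f2, plus strand).
Pcna: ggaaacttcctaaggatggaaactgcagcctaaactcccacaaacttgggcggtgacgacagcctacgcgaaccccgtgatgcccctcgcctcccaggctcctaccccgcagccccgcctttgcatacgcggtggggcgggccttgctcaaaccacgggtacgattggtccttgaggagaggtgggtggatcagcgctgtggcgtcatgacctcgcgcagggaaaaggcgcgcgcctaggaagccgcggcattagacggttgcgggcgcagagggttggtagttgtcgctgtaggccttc
Mcm5: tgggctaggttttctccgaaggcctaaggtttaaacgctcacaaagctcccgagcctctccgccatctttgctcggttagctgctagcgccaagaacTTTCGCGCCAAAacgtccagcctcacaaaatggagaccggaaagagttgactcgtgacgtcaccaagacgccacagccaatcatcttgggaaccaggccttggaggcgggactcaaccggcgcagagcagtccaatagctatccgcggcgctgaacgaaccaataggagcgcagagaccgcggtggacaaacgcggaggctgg
Mcm6: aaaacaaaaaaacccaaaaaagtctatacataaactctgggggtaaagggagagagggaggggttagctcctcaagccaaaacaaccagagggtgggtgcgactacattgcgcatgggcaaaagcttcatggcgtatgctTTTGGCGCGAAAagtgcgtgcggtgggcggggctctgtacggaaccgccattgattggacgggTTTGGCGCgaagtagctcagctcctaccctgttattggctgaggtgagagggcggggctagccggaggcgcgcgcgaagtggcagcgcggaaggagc
E2f2: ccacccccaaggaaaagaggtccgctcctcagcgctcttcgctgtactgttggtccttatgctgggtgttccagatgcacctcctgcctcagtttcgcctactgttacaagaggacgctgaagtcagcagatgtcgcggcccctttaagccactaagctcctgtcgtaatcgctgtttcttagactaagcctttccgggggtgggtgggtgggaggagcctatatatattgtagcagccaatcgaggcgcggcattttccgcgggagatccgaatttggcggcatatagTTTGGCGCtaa

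Of the members, 31 had at least 1 such window, some of them several. No window was available for Rfc2, Mcm4, Ccne2, Gins1, Gins2 and Pole, so these 6 were not searched. Of the 31, 12 (38.7%) held a match. Among the other replication genes listed below 12 of 37 (32.4%) did, against 368 of 7031 tested genes with a window (5.23%) and 704 of 27025 symbols in all (2.60%). The 12 were Mcm3, Mcm5, Mcm6, Mcm7, Cdc6, Cdt1, Pola1, Pold1, Rfc3, Lig1, Uhrf1 and E2f2. The overlapping matches in Mcm5 (TTTCGCGCCAAA) and Mcm6 (TTTGGCGCGAAA) are reverse complements of each other, and this run of 12 bases occurred in the windows of 4 of the 27025 symbols (0.0148%). It was singled out after the windows had been read. No match was found in the windows of Pcna, Mcm10 or E2f1, which says only that these letters are not in those 300 bases. The E2f1 window, at chr2:154569377-154569676 on the minus strand, lies inside the gene as placed below, which starts at 154569892. The bases before that start were not searched. The median log2 fold change was 0.26 for the 12 members with a match and 0.32 for the 19 without.

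Of the 37 members, 2 were higher in IgG1 than in IgM plasma cells and 0 were lower, at an adjusted p under 0.05 with limma over all 9087 genes. That is 5.41% of the members, beside 4.26% of all tested genes called higher and 1.76% called lower, so the share of calls lay near the background. By direction alone, 33 of 37 members (89.2%) had a log2 fold change above 0, compared with 46.3% of all tested genes. After rescaling without Jchain, the gene of the immunoglobulin joining chain, 21 members did. That rescaling set the summed FPKM of all symbols other than Jchain equal in every library. The median of all tested genes was then -0.25. With FPKM as deposited, 11 members were higher at an unadjusted p under 0.05 (29.7%, beside 11.9% of all tested genes) and 1 was lower (10.2% of all tested genes). In 12 members (32.4%) every IgG1 library lay above every IgM library, as in 13.7% of all tested genes. Only Mcm4 among the members lay lower in every IgG1 library, as did 13.5% of all tested genes. The median log2 fold change of the members was 0.32, with a range from -0.62 for Mcm4 to 1.36 for E2f1, while the median of all tested genes was -0.05. The difference between these medians was 0.37, and it was 0.35 after that rescaling. Without the filter on low values or without limma's intensity trend 0 members were called, beside 2 and 3 genes called higher in all. Fold changes are IgG1 minus IgM of log2(FPKM + 1), which understates the change of low genes, and values with ± are mean FPKM and SD with n = 3 libraries. In bulk RNA a different share of cycling cells and a different amount of RNA per cell cannot be told apart.

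**Figure D1:**
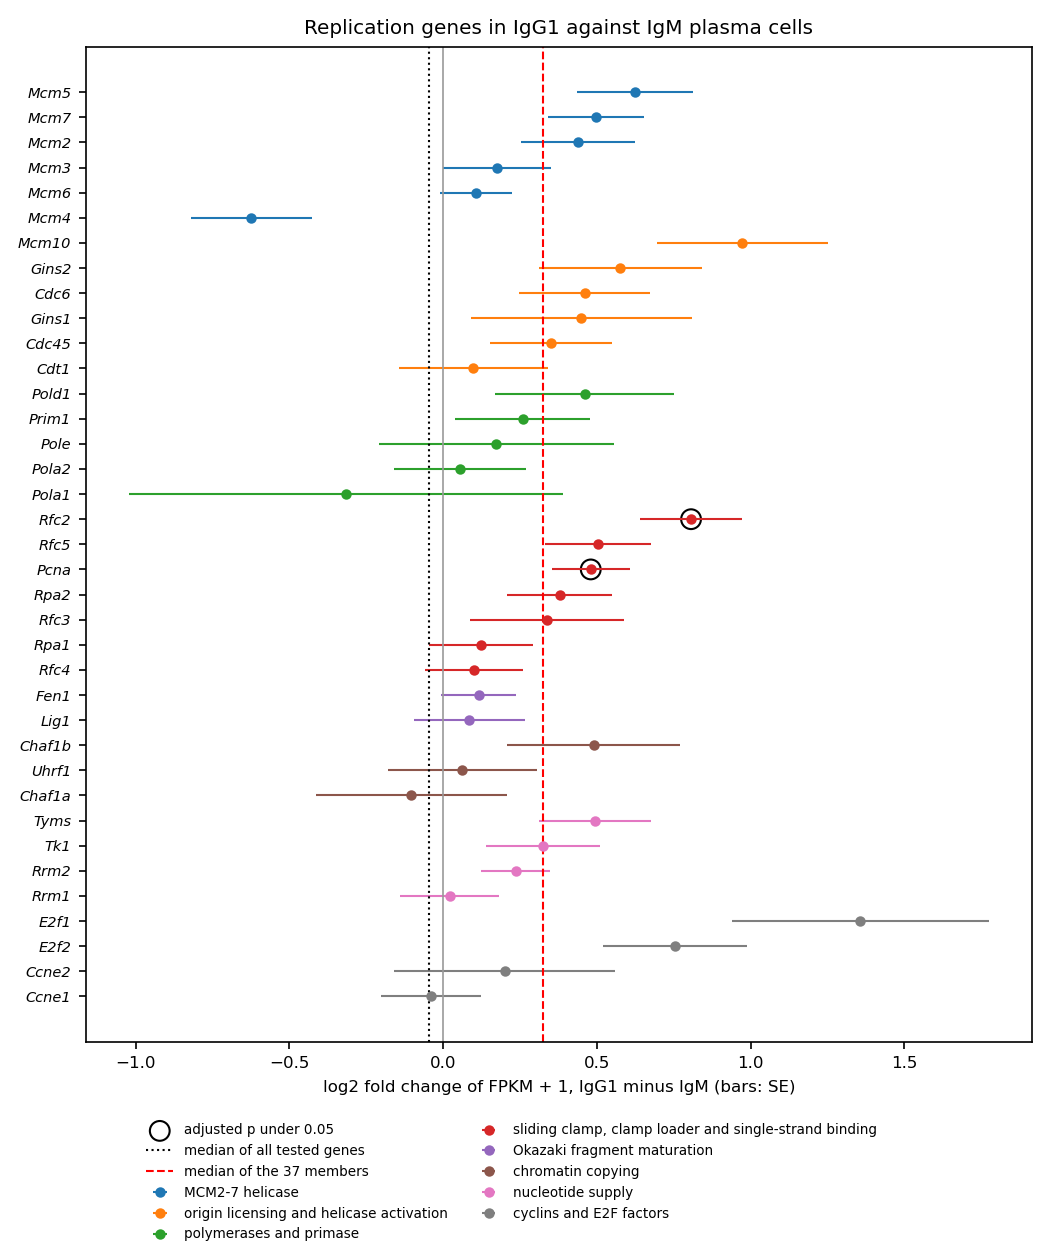
Log2 fold change of FPKM + 1 (IgG1 minus IgM, horizontal axis) for each of the 37 members, grouped by role, with bars of 1 SE, rings around the 2 genes with adjusted p under 0.05, and lines at the median of the members (0.32) and of all tested genes (-0.05). Most points lie right of 0, and Mcm4 at -0.62 stands left of the other helicase subunits, although under rescaling of the libraries without Jchain 16 members lay below 0.

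The sliding clamp gene Pcna was called. PCNA rings the DNA and tethers the polymerases to it. Its FPKM was 183, 169 and 173 in IgM libraries 1 to 3 and 211, 265 and 261 in IgG1 libraries 1 to 3, so the groups did not overlap and IgG1 library 1 was the lowest of its group. The means were 175 ± 7.32 and 246 ± 30.1, a ratio of 1.40 (log2 fold change 0.48, SE 0.13, adjusted p = 0.0480). This call lay close to the threshold. It was kept in 1 of the 6 fits that left out a library, that without IgG1 replicate 1, and the adjusted p in the other 5 was 0.122 to 0.154. Over all 16 alternatives Pcna was called in 5. The alternatives in which it was lost include a pseudocount of 0.1 (adjusted p = 0.0593), no filter on low values (adjusted p = 0.132), no intensity trend (adjusted p = 0.232), quantile normalization (0.30, adjusted p = 0.181) and rescaling without Jchain (0.25, adjusted p = 0.231). Pcna lies on chromosome 2 of GRCm38 from 132249162 to 132253314, and 2 annotated pseudogenes, Pcna-ps1 and Pcna-ps2, carry its name.

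Rfc2, which encodes a subunit of the clamp loader that opens the PCNA ring, gave the second call and the smallest adjusted p of the list. It was at 128, 154 and 156 in the IgM and at 211, 239 and 328 in the IgG1 libraries 1 to 3. Every IgG1 library lay above every IgM library, with IgG1 library 3 the highest. The means were 146 ± 15.3 and 259 ± 60.8, a ratio of 1.78 (0.81, SE 0.16, adjusted p = 0.0167). The adjusted p was 0.0921, 0.0532 and 0.0508 without IgM replicate 1, IgG1 replicate 2 and IgG1 replicate 3, which ended the call, and at most 0.0422 without any of the other 3 libraries. Rfc2 lies on chromosome 5 from 134581366 to 134601805, and its exons overlap those of Lat2 on the opposite strand. Whether strand entered the counting is not stated in the sources used here, so reads of the pair may be shared. Lat2 itself was at 93.7 ± 6.91 in IgM and 102 ± 17.4 in IgG1 (0.12, adjusted p = 0.723).

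The other clamp loader subunits had smaller log2 fold changes. Rfc5 was at 74.0, 75.1 and 68.6 in the IgM and 80.7, 122 and 111 in the IgG1 libraries, again without overlap (0.50, SE 0.17, adjusted p = 0.108), and passed the threshold only in the fit without IgG1 replicate 1 (adjusted p = 0.0316). Rfc3 (35.1 ± 11.2 in IgM and 43.5 ± 8.67 in IgG1) and Rfc4 (98.6 ± 11.3 and 106 ± 17.6) overlapped between the groups (0.34 and 0.10, adjusted p = 0.481 and 0.770). RPA coats the single-stranded DNA behind the helicase. Its subunit genes Rpa1 (81.1 ± 11.8 and 88.4 ± 13.2) and Rpa2 (80.0 ± 5.26 and 106 ± 23.3) overlapped as well, with adjusted p of 0.728 and 0.222.

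**Figure D2:**
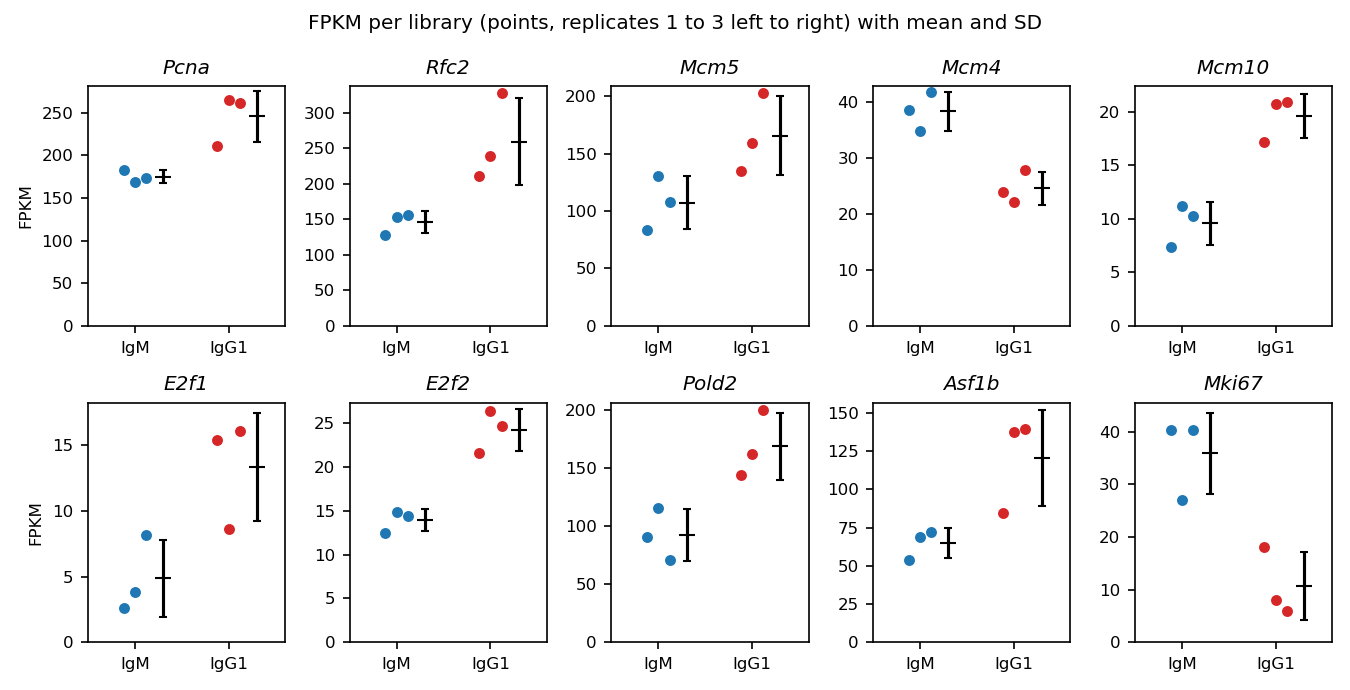
FPKM in each library (points, replicates 1 to 3 from left to right) with mean and SD (n = 3) for 7 members and for Pold2, Asf1b and Mki67, on axes from 0. The groups do not overlap in any of the 10 genes shown, Mcm4 and Mki67 are lower in IgG1, and the smallest gap in FPKM between groups is that of E2f1 (8.17 in IgM library 3 and 8.66 in IgG1 library 2). The genes shown include the calls and genes added after their values were seen, so the lack of overlap describes that choice. Of all 37 members, 12 lay higher and 1 lower in every IgG1 library, beside 13.7% and 13.5% of all tested genes, and 24 overlapped.

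MCM2 to MCM7 form the helicase ring with 1 copy of each. Of their 6 genes 0 passed the test, and 5 had a log2 fold change above 0. Mcm5 was at 83.7, 130 and 108 in the IgM and 135, 159 and 203 in the IgG1 libraries, a ratio of means of 1.54 with no overlap (0.62, SE 0.19, adjusted p = 0.0752). Mcm7 (93.8 ± 16.6 in IgM and 132 ± 12.2 in IgG1) had a log2 fold change of 0.50 (adjusted p = 0.0839) without overlap, and its exons overlap those of Cops6 and Ap4m1 on the opposite strand. Mcm2 (83.0 ± 19.6 and 111 ± 15.1; 0.44, adjusted p = 0.191) and Mcm3 (86.7 ± 6.24 and 99.7 ± 24.4; 0.18, adjusted p = 0.616) overlapped between the groups. Mcm6 had the highest mean of the subunits, at 159, 163 and 168 in the IgM and 168, 184 and 177 in the IgG1 libraries. These values barely separated the groups (0.11, SE 0.12, adjusted p = 0.656).

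Mcm4 was the exception in sign. It was at 38.5, 34.8 and 41.8 in the IgM and 23.9, 22.1 and 27.8 in the IgG1 libraries, so that every IgG1 library was lower, at a ratio of 1.56 between the means of IgM and IgG1 (-0.62, SE 0.20, adjusted p = 0.0861). It was also the least abundant subunit in all 6 libraries. After the trend with transcript length and GC content in every library was removed, its log2 fold change was -0.33 (adjusted p = 0.444). Rescaled without Jchain it was -0.85 and passed the threshold (adjusted p = 0.0314). Mcm4 lies on chromosome 16 from 15623897 to 15637400, Mcm5 on chromosome 8 from 75109569 to 75128439 and Mcm6 on chromosome 1 from 128331590 to 128359664, all protein-coding.

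Among the genes that load and switch on the helicase, Mcm10 stood out. MCM10 is a scaffold needed to start unwinding. It was at 7.34, 11.2 and 10.3 in the IgM and 17.2, 20.7 and 20.9 in the IgG1 libraries, which left a wide gap between the groups, and the means of 9.59 ± 2.00 and 19.6 ± 2.08 gave a ratio of 2.04 (0.97, SE 0.28, adjusted p = 0.0607). It passed the threshold after the length and GC correction (1.22, adjusted p = 0.0428), after median centring (1.05, adjusted p = 0.0463) and when genes had to reach an FPKM of 5 (adjusted p = 0.0448). These were 3 of the 16 alternatives, and Mcm10 was not called in the others. Of the 6 fits that left out a library 0 called it, with an adjusted p of up to 0.261 (without IgM replicate 1). The licensing gene Cdc6 was at 20.8 ± 1.34 and 29.1 ± 3.89 without overlap (0.46, adjusted p = 0.230), while its partner Cdt1 was at 37.7 ± 11.7 and 39.6 ± 7.36 (0.10, adjusted p = 0.854).

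The remaining activators varied mostly through single libraries. Gins2, a subunit of the GINS complex, was at 44.3, 35.5 and 50.5 in the IgM and 51.6, 49.9 and 105 in the IgG1 libraries (0.58, SE 0.27, adjusted p = 0.229), and the high value belonged to IgG1 library 3. Gins1 was at 19.6, 16.5 and 19.3 and at 18.8, 51.2 and 16.9, where IgG1 library 2 stood alone, and its log2 fold change of 0.45 was -0.04 without that library. The helicase co-factor gene Cdc45 was at 46.8 ± 5.88 and 60.7 ± 14.5 (0.35, adjusted p = 0.330).

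Polymerase and primase genes overlapped between the groups in all 5 cases, and 0 of the 5 passed the test. Prim1, the catalytic subunit of primase, was at 26.9, 40.8 and 45.6 in the IgM and 45.7, 48.8 and 39.2 in the IgG1 libraries (0.26, SE 0.22, adjusted p = 0.541). Pold1, the catalytic subunit of the lagging-strand polymerase delta, was at 25.8, 31.4 and 17.6 and at 23.5, 33.5 and 49.0 (0.46, SE 0.29, adjusted p = 0.392). Both spread widely within each group. Pola2, the accessory subunit of polymerase alpha, was at 39.5 ± 7.30 and 41.1 ± 8.11 (0.06, adjusted p = 0.910). Pole, the catalytic subunit of the leading-strand polymerase epsilon, was low at 4.51 ± 1.14 and 5.21 ± 1.24 (0.17, adjusted p = 0.834). Pola1, which encodes the catalytic subunit of polymerase alpha, was at 9.51, 0.305 and 8.68 in the IgM and 3.07, 1.86 and 4.93 in the IgG1 libraries. IgM library 2 was far from the others of its group, and the SE of 0.71 exceeded the log2 fold change of -0.32 (adjusted p = 0.836).

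Among 5 genes that finish and package the new strand, 0 passed the test and the groups overlapped in every case. Fen1, the flap endonuclease that trims Okazaki fragments, was at 191, 213 and 221 in the IgM and 223, 209 and 246 in the IgG1 libraries (0.12, SE 0.12, adjusted p = 0.637). Its exons overlap those of Tmem258 on the opposite strand. Lig1, the ligase that joins the fragments, was at 51.3 ± 5.45 and 54.8 ± 9.36 (0.08, adjusted p = 0.827). Uhrf1, which directs maintenance methylation to new DNA, was at 29.4, 22.6 and 29.7 and at 22.5, 26.3 and 38.1 (0.06, SE 0.24, adjusted p = 0.909). Of the subunit genes of chromatin assembly factor 1, Chaf1b was at 16.6, 15.4 and 24.5 and at 18.6, 28.1 and 34.7 (0.49, SE 0.28, adjusted p = 0.340), and Chaf1a was at 23.7 ± 1.89 and 23.7 ± 12.1 (-0.10, SE 0.31, adjusted p = 0.882). The spread of Chaf1a in IgG1 came from library 3 at 37.5, beside 19.2 and 14.5.

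In nucleotide supply, Rrm2 was the most abundant member in every library. It encodes the small subunit of ribonucleotide reductase, which makes deoxynucleotides. It was at 399, 415 and 484 in the IgM and 488, 503 and 534 in the IgG1 libraries, separated by a narrow margin (0.24, SE 0.11, adjusted p = 0.240). The large subunit gene Rrm1 was at 74.0 ± 6.03 and 75.5 ± 11.7 (0.02, adjusted p = 0.953). Tyms, thymidylate synthase, was at 31.2, 30.5 and 27.0 and at 43.2, 43.9 and 38.8, a ratio of 1.42 with no overlap (0.49, SE 0.18, adjusted p = 0.136). The thymidine kinase gene Tk1 was at 48.4 ± 2.13 and 61.7 ± 12.7 with overlap (0.32, adjusted p = 0.337).

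Of the regulators, E2f1 had the largest log2 fold change of the list. It was at 2.63, 3.84 and 8.17 in the IgM and 15.4, 8.66 and 16.1 in the IgG1 libraries, so the groups were separate but IgM library 3 nearly met IgG1 library 2. The means of 4.88 ± 2.91 and 13.4 ± 4.10 had a ratio of 2.74 (1.36, SE 0.42, adjusted p = 0.0797). By the approximate step above, the lowest of these values stood for about 117 fragments and the highest for about 678. E2f2 was at 12.5, 14.9 and 14.4 and at 21.6, 26.4 and 24.6, a ratio of 1.74 with little spread (0.75, SE 0.23, adjusted p = 0.0822). Neither passed the threshold. The cyclin E genes, whose products activate CDK2 at the start of S phase, overlapped between the groups. Ccne1 was at 60.3, 51.2 and 54.2 and at 49.3, 55.2 and 56.6 (-0.04, SE 0.16, adjusted p = 0.915), and Ccne2 at 7.02 ± 1.21 and 8.48 ± 3.24 (0.20, adjusted p = 0.795). E2f1 lies on chromosome 2 from 154559407 to 154569892, E2f2 on chromosome 4 from 136172394 to 136196057 and Mcm10 on chromosome 2 from 4989714 to 5012791.

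**Figure D3:**
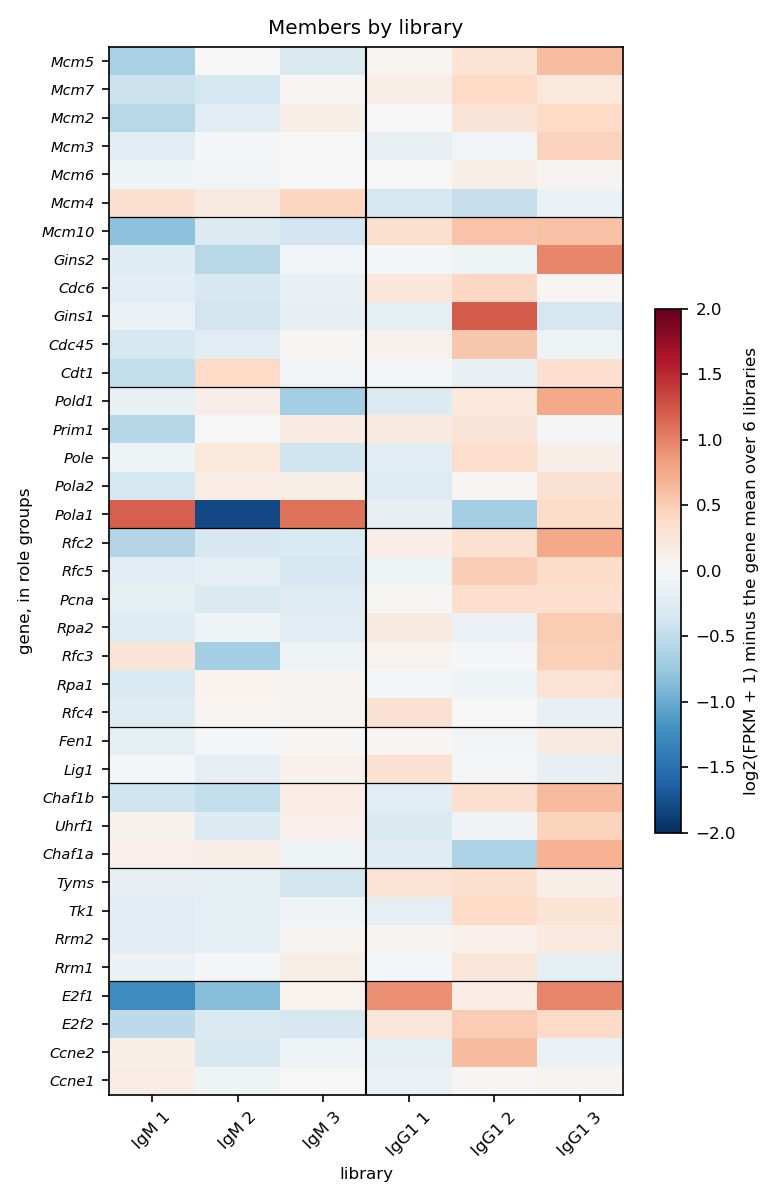
Deviation of log2(FPKM + 1) from the mean of each gene over the 6 libraries (colour), for the 37 members in role groups (rows) and the libraries (columns). Blue prevails in IgM library 1, where 19 members had their lowest value, and red in IgG1 libraries 2 and 3, where 14 and 17 members had their highest, while Mcm4 runs the other way.

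Across libraries the members followed a graded order. The median deviation of the 37 genes from their own means was -0.22, -0.20 and -0.01 in IgM libraries 1 to 3, and it was -0.01, 0.22 and 0.30 in the IgG1 libraries, all on the log2 scale. IgM library 3 and IgG1 library 1 thus lay side by side. The same median over all tested genes stayed between 0.01 and 0.04 in every library. The members' FPKM summed to 2370, 2549 and 2719 in the IgM and 2893, 3178 and 3491 in the IgG1 libraries. As a share of all FPKM these sums were 0.324%, 0.316% and 0.359% in the IgM libraries, beside 0.338%, 0.362% and 0.382% in IgG1, so the groups overlapped once each library's own total was taken into account.

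Among 46 tested genes of 47 other replication genes, 2 were called higher and 0 lower, beside 4.26% and 1.76% of all tested genes. The share of calls thus lay near the background. The median log2 fold change was 0.18, with 30 above 0 and 16 below. The range ran from -1.48 for Hells (adjusted p = 0.126) to 0.98 for Pole2 (adjusted p = 0.219). Pold2, the small subunit of polymerase delta, was at 90.5, 116 and 71.2 in the IgM and 144, 162 and 200 in the IgG1 libraries, a ratio of 1.83 without overlap (0.88, SE 0.19, adjusted p = 0.0203). Asf1b, a histone chaperone that hands new histones to chromatin assembly factor 1, was at 53.8, 68.8 and 72.4 and at 84.5, 138 and 140, a ratio of 1.86 (0.86, SE 0.21, adjusted p = 0.0332). Leaving out IgM replicate 1 or 3 or IgG1 replicate 2 or 3 ended both calls (adjusted p of 0.0618 to 0.0863 for Pold2 and 0.0640 to 0.159 for Asf1b), and leaving out IgM replicate 2 ended that of Asf1b (adjusted p = 0.0680). After rescaling without Jchain Asf1b was at 0.63 (adjusted p = 0.0696). Pold2 lies on chromosome 11 from 5872180 to 5878292 and Asf1b on chromosome 8 from 83955507 to 83970197.

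Of 27 genes of G1 and S phase control 23 were tested, and 0 were called in either direction, with a median of -0.03. At an unadjusted p under 0.05, 2 were higher and 1 lower, beside 11.9% and 10.2% of all tested genes. The most abundant were Cdk4, the kinase partner of D cyclins (194, 165 and 206 in the IgM and 222, 235 and 308 in the IgG1 libraries; adjusted p = 0.119), and Ccna2, the S phase cyclin A (90.3, 95.2 and 103 and 118, 94.6 and 133; adjusted p = 0.386). Cdkn1a, which encodes the CDK inhibitor p21, was chosen after its values were seen: it was at 0.765, 1.67 and 1.32 in the IgM and 5.02, 11.5 and 2.78 in the IgG1 libraries (1.57, SE 0.49, adjusted p = 0.0840). Its level was low, and every IgG1 library lay above every IgM library.

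Of 20 mitosis markers 1 was called lower and 0 higher, beside 1.76% and 4.26% of all tested genes. The called gene was Mki67, the proliferation antigen Ki-67. It was at 40.3, 27.0 and 40.3 in IgM and 18.2, 8.05 and 5.98 in IgG1 (-1.77, SE 0.36, adjusted p = 0.0155). At an unadjusted p under 0.05, 4 markers were lower and 0 higher, beside 10.2% and 11.9% of all tested genes. The list had a median of 0.09, with 11 above 0 and 9 below. Mki67 has the longest transcript of that list, with a median of 10061 nt. Without IgM replicate 1 or 3 or IgG1 replicate 2 or 3 its adjusted p was 0.0508 to 0.0939.

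**Figure D4:**
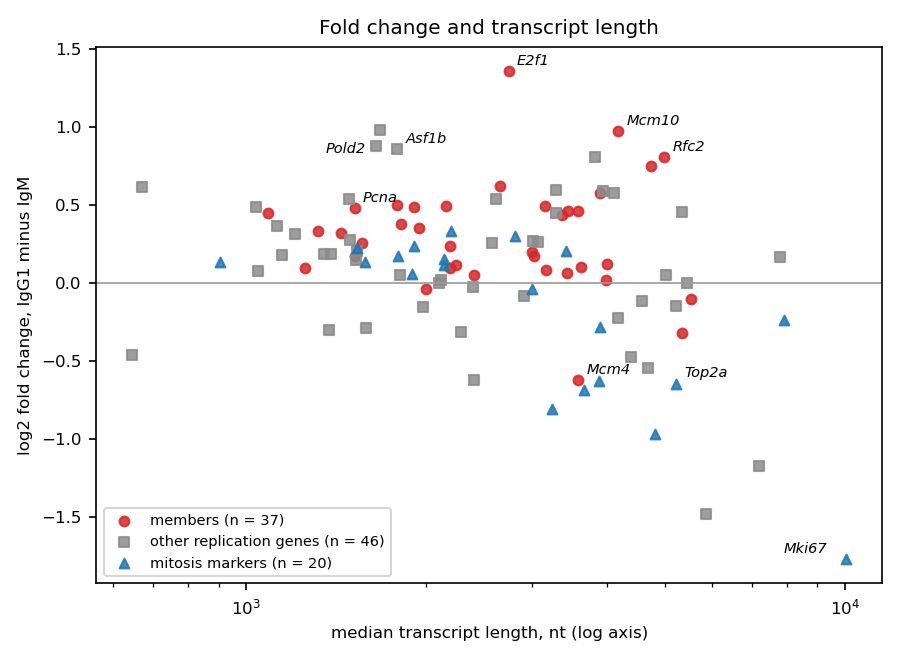
Log2 fold change (IgG1 minus IgM) against the median annotated transcript length (log axis) for the 37 members, 46 other replication genes and 20 mitosis markers, each point 1 gene. The longest mitosis marker, Mki67, lies lowest at -1.77. Long members lie on both sides of 0. Rfc2 (4995 nt) and Mcm10 (4180.5 nt) lie high, while the longest members, Chaf1a (5535 nt, -0.10) and Pola1 (5346 nt, -0.32), lie below 0.

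Transcript length moved with fold change over all tested genes, with Spearman's rho of -0.36 across 8765 genes. Across the 37 members rho was -0.07, across the 46 other replication genes -0.25 and across the 20 mitosis markers -0.67. These are descriptions across genes that share the same 6 libraries, and genes are not independent replicates. After removal of the length and GC trend of every library, the members' median was 0.37 and 3 members passed the threshold. These were Rfc2 (1.07, adjusted p = 0.0115), Pcna (0.55, adjusted p = 0.0434) and Mcm10. Of all 8765 genes in that fit 167 were called higher and 85 lower, and their median was 0.0089. Among the other replication genes and mitosis markers, the calls under this correction were Pold2 (0.68, adjusted p = 0.0468), Asf1b (0.85, adjusted p = 0.0485) and Mki67 (-1.38, adjusted p = 0.0423).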

How the data were processed

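RNA of 6 libraries was analysed. RNA isolation used the miRNeasy Micro kit, per the labels' protocols, full-length cDNA was made with SMART-Seq HT and libraries were built with Nextera XT. The deposited values are FPKM, per the file headers. Tools named in the submitters' processing notes are Bowtie2 2.3.5.1, TopHat2 2.1.1, Cuffdiff and Cufflinks 2.2.1, and the build is mm10. How libraries were scaled, and with which annotation, is not given in the sources used here.

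Deposited FPKM were used unscaled. Genes with FPKM of at least 1 in at least 3 libraries (9087) were fitted as log2(FPKM + 1) with limma 3.58.1 in R 4.3.3 (lmFit, eBayes with an intensity trend), with Benjamini-Hochberg adjustment over all 9087 genes and a threshold of 0.05. Read counts were not used here, and the depth figure is an estimate. The 16 alternatives left out 1 library at a time, used a pseudocount of 0.1 or 5, dropped the filter or raised it to an FPKM of 5, or dropped the trend in intensity. Others centred medians, normalized quantiles, removed length and GC trends, or added the replicate number as a block. Rescaling without Jchain set libraries to an equal summed FPKM of all symbols other than Jchain. Transcript lengths, GC content (96.5% of tested genes) and gene positions are from GENCODE vM21 (GRCm38, the assembly of mm10), and the authors' lengths were not used. Exons of 11 members overlap a protein-coding gene on the opposite strand, and 2 members, Pcna and Tyms, have pseudogenes named after them.

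Values in every library are given, by rule, for each member called and, in each role group, for the member with the highest mean and that with the largest log2 fold change. Of each other list up to 4 called genes per direction are named or, with none, the 2 most abundant. Mcm4, E2f2, Rfc5, Gins1, Pola1, Cdkn1a, Lat2, Hells and Pole2 were added where the rule did not name them, after their values were seen. The members and lists were chosen with earlier results of these data known. The script was tested on simulated data.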

Additional observations from a re-analysis of the deposited data

How the results depend on the processing

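The count of 2 members called higher was 1 with a pseudocount of 0.1, with quantile normalization or when rescaled without Jchain, 0 without the filter on low values and without the intensity trend, and 0 to 3 when 1 library was left out (0 without IgM replicate 1, IgG1 replicate 2 or IgG1 replicate 3). Without the filter 2 of 14922 genes in all were called higher and 4 lower, and without the trend 3 and 5 of 9087. The count of 0 members called lower was 1 (Mcm4) after rescaling without Jchain and 0 in the other alternatives. The 2 other replication genes called higher became 1 after rescaling and 0 without the filter or the trend, and 0 to 2 when 1 library was left out. The mitosis marker called lower became 2 after rescaling, 0 without the filter or the trend, and 0 to 1 when 1 library was left out.

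The members' median log2 fold change of 0.32 was above 0 in all 16 alternatives. It was 0.10 after rescaling without Jchain (median of all genes -0.25, beside -0.05 as deposited) and 0.20 to 0.38 when 1 library was left out. Relative to the median of all genes it was 0.37 as deposited, 0.35 after rescaling and 0.27 after quantile normalization. Higher calls made up 70.8% of calls over all genes, 80.6% with median centring, 48.5% with quantile normalization and 31.1% with rescaling. Same-numbered libraries correlated at 0.10, -0.03 and 0.00 in their deviations from the group means, so the numbers were not treated as pairs. A replicate block called 2 members, Rfc2 and Mcm5 (adjusted p = 0.0330), and not Pcna (adjusted p = 0.0557), and 0 members lower.

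The sign of 17 members changed in at least 1 alternative, each time at a size of at most 0.21 and an adjusted p of at least 0.463. After rescaling without Jchain these were Rrm1 (-0.21), Pola2 (-0.17), Uhrf1 (-0.16), Lig1 (-0.14), Rfc4 (-0.13), Cdt1 (-0.13), Mcm6 (-0.12), Fen1 (-0.12), Rpa1 (-0.11), Mcm3 (-0.055), Pole (-0.019) and Ccne2 (-0.0053). After quantile normalization they were Mcm6 (-0.079), Rrm1 (-0.062), Fen1 (-0.044), Rfc4 (-0.027) and Rrm2 (-0.0053). After the length and GC correction they were Pola1 (0.053), Chaf1a (0.039) and Cdt1 (-0.029), and after median centring Ccne1 (0.036). Leaving out 1 library gave ranges across 0 for Pola1 (-1.30 to 0.21), Chaf1a (-0.48 to 0.18), Uhrf1 (-0.15 to 0.22), Cdt1 (-0.12 to 0.32), Pola2 (-0.10 to 0.20), Rrm1 (-0.10 to 0.12), Ccne1 (-0.092 to 0.024), Ccne2 (-0.065 to 0.35), Lig1 (-0.046 to 0.18), Gins1 (-0.040 to 0.73), Rfc4 (-0.026 to 0.20), Mcm3 (-0.014 to 0.30) and Rpa1 (-0.0017 to 0.20). The cause of these changes was not tested.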

Other observations

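Ratios between partner genes within a library do not depend on the scaling of that library, and they were examined after the values had been seen. They can still carry a library's trend with transcript length or GC content. After removal of that trend the log2 fold change was 0.65 for Mcm5 and -0.33 for Mcm4, beside 0.62 and -0.62 as deposited. The ratio of Mcm5 to Mcm4, on the FPKM scale and thus per length, was 2.17, 3.75 and 2.58 in the IgM and 5.65, 7.21 and 7.29 in the IgG1 libraries 1 to 3 (2.83 ± 0.817 and 6.72 ± 0.923, SD, n = 3 each). The ratio of Mcm6 to Mcm4 was 4.14, 4.68 and 4.03 in the IgM and 7.05, 8.32 and 6.34 in the IgG1 libraries. Neither ratio overlapped between the groups, and with 3 against 3 libraries the smallest exact permutation p, two-sided, is 0.1. Mcm4 was chosen as the denominator because it lay lower in every IgG1 library, so these ratios describe that choice and were not tested.

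In the clamp loader the ratio of Rfc2 to Rfc4 stood at 1.499, 1.465 and 1.48 in the IgM and 1.68, 2.35 and 3.60 in the IgG1 libraries. The spread of the IgM values was narrow and that of the IgG1 values wide. For ribonucleotide reductase the ratio of Rrm2 to Rrm1 was 5.79, 5.72 and 6.00 in the IgM and 6.70, 5.69 and 8.15 in the IgG1 libraries, which overlapped.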
